A study of Mus musculus with 6 samples.

Results

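T cells, B cells and plasma cells were followed in bulk liver RNA through 9 marker genes, chosen by symbol for the cells they mark. They were 4 T cell genes (Cd3d, Cd3e, Cd3g and Cd8a), 3 B cell genes (Cd79a, Cd79b and Ms4a1) and 2 plasma cell genes (Jchain and Mzb1). All 9 are among the 47243 gene names used, and all 9 passed the filter on low values that left 18628 genes for testing. The livers came from 3 inbred C57BL/6 laboratory mice, all males a few months old obtained from a breeder, and from 3 outbred wild mice, adults live-trapped at a pair of sites and then kept for some months in captivity. Wild mouse 1 was male and wild mice 2 and 3 were female. Wild mice 1 and 2 shared a trapping site and wild mouse 3 came from the other. Origin, housing history and age therefore cannot be told apart, and sex differed partly with origin. The labels name no engineered allele and no agent for either group. The RNA came from frozen liver that had not met fixative, and each mouse gave 1 library. FPKM is the number of fragments on a gene scaled to its length and to the library, so levels can be compared between genes within a mouse. zFPKM is log2 FPKM recentred on a mode and rescaled by an SD that were fitted to each mouse separately.

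T cells recognise antigen with a receptor whose signal is passed on by the CD3 chains, and those that kill infected cells also carry the co-receptor CD8. B cells carry an immunoglobulin on their surface, which signals through the CD79A and CD79B pair, and MS4A1 (CD20) is found on B cells until they mature into plasma cells. Plasma cells lose most of these surface proteins and secrete antibody. In liver, lymphocytes lie in the sinusoids and around the portal tracts among far more numerous hepatocytes, and blood left in the organ brings further ones. Because these were bulk samples, fewer cells of a type and less RNA per cell cannot be told apart.

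On zFPKM the largest differences among the 9 genes were those of the B cell receptor genes Cd79a and Cd79b and of Jchain. Cd79a and Cd79b, which encode the signalling pair of the B cell receptor, were higher in each laboratory mouse than in each wild mouse, by 2.83 and 4.03 times in mean FPKM. Jchain, which encodes the chain that links antibody units into polymers, was 16.6 times higher in the wild mice by mean FPKM, again with no overlap. Without wild mouse 3 these folds became 4.89, 7.55 and 5.20. Cd3e was 5.02 times higher in the wild mice with no overlap. That fold ranged from 3.46 without wild mouse 3 to 9.71 without laboratory mouse 3. Its neighbours Cd3d and Cd3g overlapped between the groups. Thus 2 of 9 genes lay higher in all laboratory mice and 2 lay lower, where 12.1% of all tested genes lay higher and 43.7% lower. In limma's test on zFPKM, with Benjamini-Hochberg adjustment over all 18628 genes, Cd79b (higher in laboratory mice) and Jchain (lower) passed an adjusted p of 0.05. Among all tested genes, 7.17% were higher and 7.28% were lower in laboratory mice by that test, so 1 member of 9 in each direction is near the share of all genes.

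In the authors' scaling 2 libraries stood apart. The mode of log2 FPKM was 2.12 in laboratory mouse 3, against 0.491 and 0.794 in the other laboratory mice, and 2.51 in wild mouse 1, against 1.31 and 1.77. Values of the markers are given with both mice unless said otherwise. Leaving out both set 2 laboratory males against 2 wild females, so sex and origin cannot be told apart there. In that fit Cd79a, Cd79b and Cd3e passed limma's test on zFPKM, with adjusted p = 0.0152, 0.0103 and 0.0449, and Jchain did not (0.0672). Calls were common in it, with 2712 of all 18628 tested genes higher in laboratory mice and 2971 lower.

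On the mouse genome (GRCm38), Cd79a lies at chr7:24897497-24901858 on the plus strand, Cd79b at chr11:106311341-106314562 on the minus strand and Jchain at chr5:88519809-88527897 on the minus strand. The 3 Cd3 genes stand side by side on chromosome 9, Cd3g at 44969572 to 44980431 (minus), Cd3d at 44981769 to 44987052 (plus) and Cd3e at 44998735 to 45009663 (minus). Cd3g and Cd3d are read away from each other from starts 1338 bases apart, and the start of Cd3e lies 27894 bases from that of Cd3d. Cd8a is at chr6:71373427-71379171 (plus) and Ms4a1 at chr19:11249679-11266149 (minus).

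The 250 bases upstream of the start are shown for 1 gene of each class, so that the regions that start a T cell, a B cell and a plasma cell transcript can be read side by side. They are RefSeq sequence of GRCm38.p6, printed along the gene's own strand, and RefSeq promoter entries were found for 6 of the 9 genes. Capitals mark the only match to the 5 motifs that were searched on both strands.
Cd3g (chr9:44980432-44980681, minus): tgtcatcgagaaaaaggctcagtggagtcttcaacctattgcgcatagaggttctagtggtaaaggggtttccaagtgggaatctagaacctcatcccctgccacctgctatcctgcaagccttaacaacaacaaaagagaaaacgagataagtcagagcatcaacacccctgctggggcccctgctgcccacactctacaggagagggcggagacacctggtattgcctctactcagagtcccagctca
Cd79a (chr7:24897247-24897496, plus): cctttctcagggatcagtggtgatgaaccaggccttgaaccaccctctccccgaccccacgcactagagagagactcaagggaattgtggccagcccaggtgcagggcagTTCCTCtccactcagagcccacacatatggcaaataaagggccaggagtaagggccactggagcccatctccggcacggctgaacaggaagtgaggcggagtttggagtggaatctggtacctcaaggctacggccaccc
Jchain (chr5:88527898-88528147, minus): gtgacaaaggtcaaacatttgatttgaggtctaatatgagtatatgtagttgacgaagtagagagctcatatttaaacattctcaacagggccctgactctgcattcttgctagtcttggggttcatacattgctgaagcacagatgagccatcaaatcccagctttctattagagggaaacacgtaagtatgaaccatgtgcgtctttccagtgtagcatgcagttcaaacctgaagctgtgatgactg
The match in Cd79a is TTCCTC, the reverse complement of GAGGAA, the core that the blood cell factor PU.1 binds, and it begins 140 bases before the start. The same letters occur on either strand in 23.3% of 32851 promoter windows of this length, so the match is common. The others were the octamer ATTTGCAT (1.60% of windows), the EBF1 motif CCCNNGGG (11.8%), the Runx motif TGTGGT (14.0%) and TATAAA (12.4%), and these letters are not in the 3 windows shown. Only exact letters were searched, so sites of these factors that differ by a letter would be missed.

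Among the 9 markers, Jchain in wild mouse 3 was the highest value of any. Cd79a, the highest member in every laboratory mouse, lay above between 57.5% and 62.9% of the tested genes there. Jchain was the highest member in every wild mouse and lay above 84.8% of tested genes in wild mouse 3. In the laboratory mice the FPKM order ran from Cd79a to Cd79b to Cd3g, and none of these 3 overlapped its neighbour. Cd3g and Jchain overlapped, as did Ms4a1, Mzb1, Cd3e and Cd8a with their neighbours below that. In the wild mice only Jchain stood clear of the next gene, Cd3e, and every other neighbour in the order overlapped.

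The deposited Cufflinks bounds on FPKM, given for 5 of the mice, show how few reads lie behind these levels. If the bounds came from counting alone, Cd3e rested on about 1.08 reads in laboratory mouse 2 and 34.3 in wild mouse 3. Jchain rested on 18.0 to 900 reads, Cd79a on 5.55 to 38.0 and Cd79b on 1.91 to 34.9. Cd8a and Mzb1 rested on fewer than 4 reads in each of these mice other than wild mouse 3. The FPKM that 1 such read stood for varied by 1.50 times between mice for Jchain and by 2.23 times for Cd3e, so the read numbers of Cd3e are the rougher. Each bound refers to 1 library and holds no spread between mice. Differences of a few reads in Cd8a, Mzb1, Ms4a1 or Cd3d were not detectable at this depth.

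**Figure D1:**
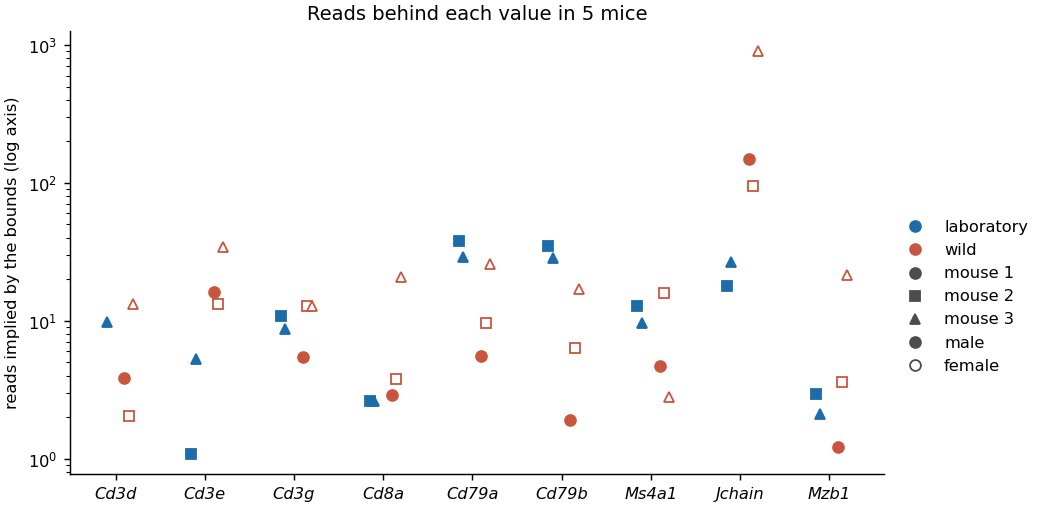
Approximate number of reads behind each marker in the 5 mice with Cufflinks bounds, on a log axis, with laboratory mice in blue and wild mice in red (open symbols, females). Jchain lies between 18.0 and 900 reads, while Cd8a and Mzb1 lie below 4 reads outside wild mouse 3 and Cd3d, listed at 0 in laboratory mouse 2, has no point there.

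Cd79a was at 1.90, 2.26 and 1.90 FPKM in the laboratory livers, against 0.391, 0.435 and 1.31 in the wild livers. The lowest laboratory value lay above the highest wild value, which was that of wild mouse 3. The difference in zFPKM (laboratory minus wild) was 0.84 ± 0.323 (SE, n = 3 per group), with limma's adjusted p = 0.0615, so it did not pass the test. This SE, like the others on zFPKM, was drawn by limma largely from genes of like level. On log2(FPKM + 0.1) the difference was 1.56, with limma's adjusted p = 0.0230.

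Cd79b stood at 1.29, 1.79 and 1.58 FPKM in laboratory livers and at 0.127, 0.284 and 0.743 in wild ones. All 3 wild values were below every laboratory value, with wild mouse 3 again the highest of its group. The zFPKM difference was 1.06 ± 0.365 (SE, n = 3 per group), with limma's adjusted p = 0.0290. The call rests on single mice: limma's adjusted p was 0.214 without laboratory mouse 1, 0.234 without laboratory mouse 2, 0.0544 without laboratory mouse 3 and 0.148 without wild mouse 1. With sex as a covariate the zFPKM differences were 1.37 for Cd79a and 1.84 for Cd79b. All laboratory mice were male, so these differences set them against wild mouse 1 alone. The same holds for every later difference with sex as a covariate.

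Ms4a1, the CD20 gene, measured 0.186, 0.220 and 0.184 FPKM in the 3 laboratory animals, compared with 0.0742, 0.198 and 0.0431 in the 3 wild animals. Wild mouse 2 lay inside the laboratory range, so the groups overlapped. The zFPKM difference of 0.65 had limma's adjusted p = 0.407. An antisense gene, 4930526L06Rik, overlaps Ms4a1, and how strand was used in the authors' counting is not given in the sources used here.

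Within the B cell receptor pair, the ratio of Cd79b to Cd79a was 0.678, 0.794 and 0.830 in the laboratory livers, against 0.326, 0.653 and 0.566 in the wild livers. The wild mice had the lower ratio without overlap, although wild mouse 2 came close to laboratory mouse 1. Set against Ptprc (CD45), which all leukocytes carry, Cd79b gave ratios of 1.63, 1.68 and 1.29 in laboratory livers and 0.498, 0.296 and 0.227 in wild ones. The gap for Cd79b was thus also present relative to leukocyte RNA. For Cd79a to Ptprc the lowest laboratory ratio, 1.55, was close to the highest wild ratio, 1.53.

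Other B cell genes were mostly at higher FPKM in the laboratory mice. Of 24 listed genes 19 were tested, of which 2 rose in laboratory mice and none fell in limma's test on zFPKM, with 7 at an unadjusted p under 0.05. Among all tested genes 7.17% rose and 7.28% fell. Their median zFPKM difference was 0.66, against 0.00 over all tested genes. In FPKM, 10 of the 19 lay higher in all laboratory mice than in all wild mice and none lay lower, against the shares of all genes given above. On log2(FPKM + 0.1), 6 of the 19 passed as higher and 0 as lower, where 8.19% and 38.0% of all tested genes passed.

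Among the genes that rose, Pax5, the transcription factor that keeps B cell identity, was at 0.0584, 0.0760 and 0.197 FPKM in the laboratory livers and was listed at 0 in wild mice 1 and 3 and at 0.00428 in wild mouse 2. Its zFPKM difference was 1.40, with limma's adjusted p = 0.0203. That size depends on the floor, since the values listed at 0 were set to -3. With floors of -5 and -20 it was 2.74 and 12.7, and the call was lost (limma's adjusted p = 0.0504 and 0.214). The call was also lost on log2(FPKM + 1) (0.0526) and with no filter (0.572). The same held without laboratory mouse 1 (0.0600), laboratory mouse 2 (0.0609), wild mouse 2 (0.0688) or wild mouse 3 (0.120). It was lost too with sex as a covariate, where the difference was 1.42.

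The most abundant genes of the list did not separate the groups. Cd72, a B cell inhibitory receptor, was at 2.96, 2.24 and 3.74 FPKM in the laboratory livers, against 0.705, 0.650 and 4.01 in the wild livers, with wild mouse 3 the highest of all. Iglc2, a lambda light chain constant gene that plasma cells also use, stood at 2.86, 4.10 and 5.33 FPKM in laboratory livers and at 4.31, 4.81 and 18.1 in wild ones.

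Red cell genes and 2 neutrophil genes were also called higher in the laboratory mice. Of 7 red cell genes tested, 6 rose and 0 fell in limma's test on zFPKM, where 7.17% of all tested genes rose and 7.28% fell. In FPKM, 4 of the 7 lay higher without overlap, where 12.1% of all tested genes did. Their summed FPKM overlapped, at 1339.8 to 5135 in laboratory livers and 724 to 1581 in wild ones. Of 5 neutrophil genes tested, S100a8 and S100a9 rose, while Csf3r, Ngp and Retnlg overlapped. The summed FPKM of the 9 listed ones, mostly S100a8 and S100a9, was 8.05 to 14.1 against 1.95 to 3.19. Ly6g, a defining neutrophil marker named after its values were seen, is listed at 0 in every mouse. The ratio of Cd79a to the globin gene Hba-a1 overlapped between the groups, at 0.00122 to 0.00347 in laboratory and 0.000716 to 0.00268 in wild mice. The part of blood in the B cell difference was not tested.

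**Figure D2:**
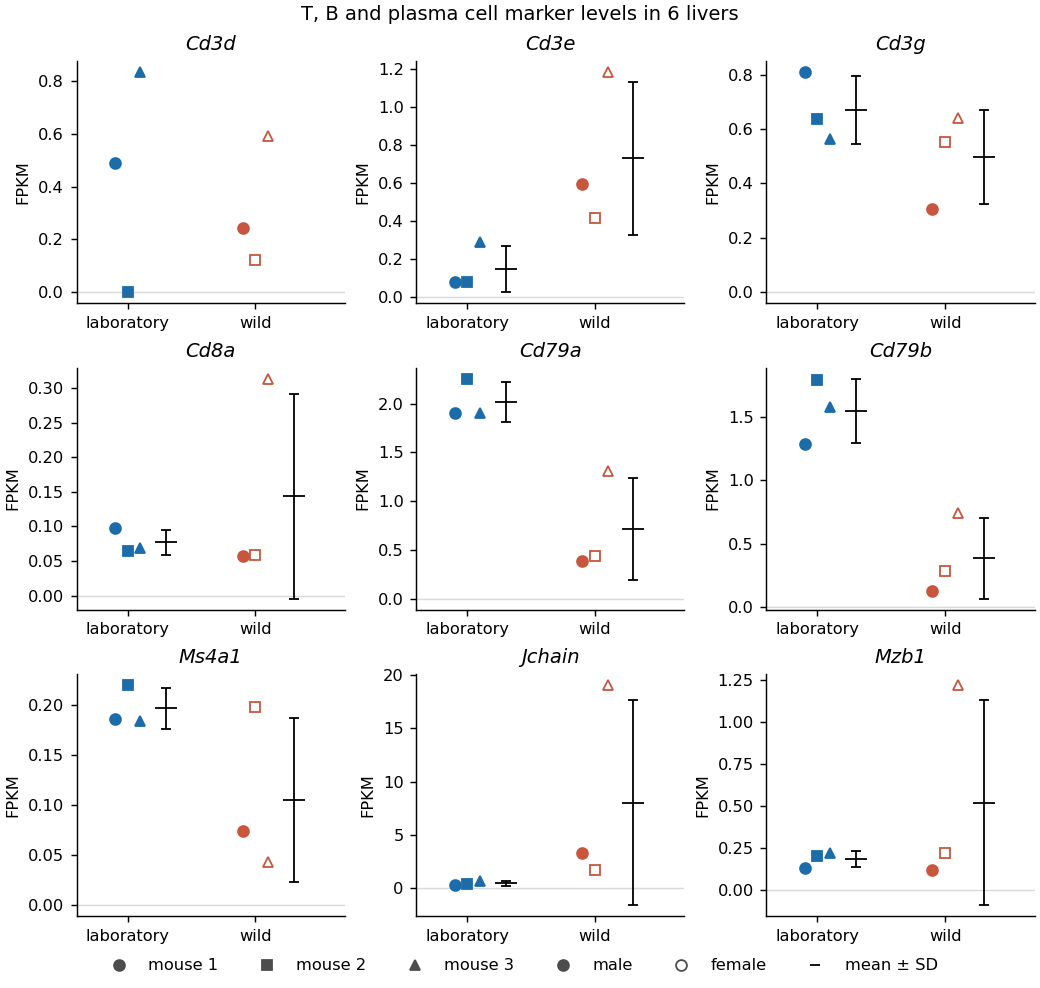
FPKM of each marker in every mouse on linear axes, with laboratory mice in blue, wild mice in red and females as open symbols. Black bars are the mean ± SD of 3 mice, left out for Cd3d because it is listed at 0 in 1 mouse. Cd79a and Cd79b lie higher in every laboratory mouse, Cd3e and Jchain lie higher in every wild mouse, and wild mouse 3 has the highest Jchain (19.0) and Mzb1 (1.22).

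Jchain measured 0.273, 0.446 and 0.726 FPKM in the 3 laboratory animals, compared with 3.28, 1.73 and 19.0 in the 3 wild animals. Every wild mouse was above every laboratory mouse, and wild mouse 3 was far above the other wild mice. The zFPKM difference was -0.94 ± 0.299 (SE, n = 3 per group), with limma's adjusted p = 0.0159, and -3.15 on log2(FPKM + 0.1), with limma's adjusted p = 0.0161. The call was lost without wild mouse 3 (limma's adjusted p = 0.517), laboratory mouse 1 (0.0579) or laboratory mouse 3 (0.101). It was also lost with sex as a covariate, where the difference, set against wild mouse 1 alone, was -0.51. That wild male, at 3.28 FPKM, lay above every laboratory male.

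Mzb1, a chaperone of antibody assembly in plasma cells and some B cells, did not separate the groups. Its FPKM was 0.135, 0.202 and 0.220 in the laboratory livers, against 0.119, 0.222 and 1.22 in the wild livers. Only wild mouse 3 stood above the laboratory range by more than a trace, and wild mouse 1 was the lowest of the 6. The zFPKM difference was -0.04, with limma's adjusted p = 0.974. Mzb1 lies at chr18:35647265-35650266 (minus), where in the GENCODE annotation it overlaps SPATA24 on the same strand, so reads of the overlap could belong to either gene.

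The ratio of Jchain to Mzb1 was 2.02, 2.21 and 3.30 in laboratory livers and 27.7, 7.77 and 15.6 in wild ones. The measured FPKM of these markers thus did not keep a fixed ratio. The ratios are uncertain, since Mzb1 rested on 1.21 to 3.57 reads in each mouse with bounds other than wild mouse 3. The gap was widest in wild mouse 1, where Mzb1 rested on 1.21 reads. Relative to Ptprc, Jchain was 0.344, 0.418 and 0.594 in the laboratory animals, compared with 12.8, 1.80 and 5.82 in the wild animals.

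**Figure D3:**
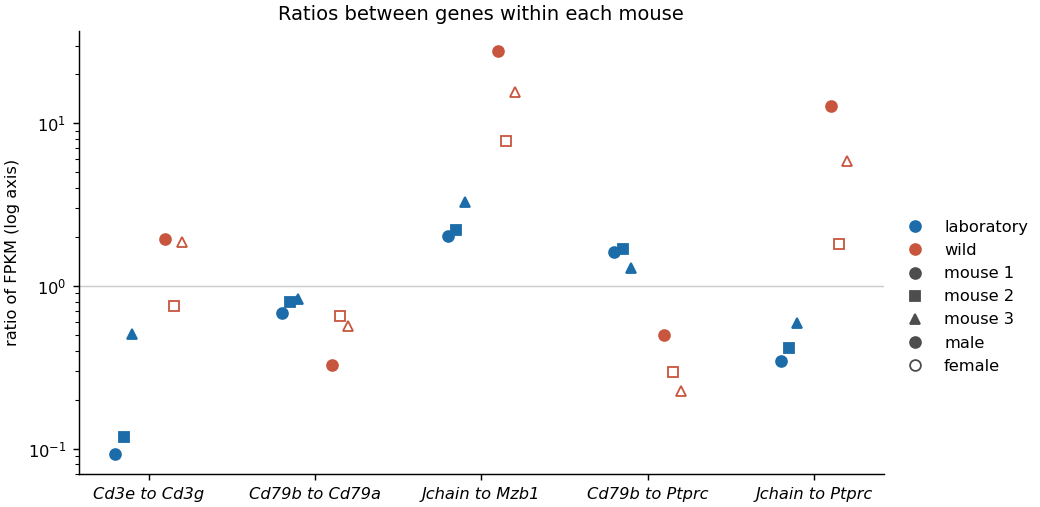
Ratio of the FPKM of 2 genes within each mouse on a log axis, with laboratory mice in blue, wild mice in red and females as open symbols. The wild mice lie above the laboratory mice for Cd3e to Cd3g, Jchain to Mzb1 and Jchain to Ptprc, and below them for Cd79b to Cd79a and Cd79b to Ptprc.

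Other plasma cell genes went both ways. Of 14 listed genes 8 were tested, of which 2 rose and 1 fell in the laboratory mice in limma's test on zFPKM, where 7.17% of all tested genes rose and 7.28% fell, and their median difference was 0.26. The genes that passed work in the secretory pathway of many cells or, as Sdc1 does, are also made by hepatocytes. Fkbp11, a folding enzyme of the endoplasmic reticulum, was at 48.3, 42.9 and 60.2 FPKM in the laboratory livers, against 13.7, 6.37 and 7.93 in the wild livers. Its adjusted p from limma was 1.97e-10, and 0.0177 without the trend. Derl3, which helps to clear misfolded proteins, stood at 3.21, 5.30 and 1.81 FPKM in laboratory livers and at 0.858, 0.245 and 0.652 in wild ones, with limma's adjusted p = 0.00503. The Derl3 call was lost without laboratory mouse 1 (0.128) or laboratory mouse 2 (0.183) and with sex as a covariate (0.0971).

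Sdc1 (CD138) fell in the laboratory mice, at 15.3, 21.1 and 17.2 FPKM against 97.5, 115 and 86.0, with limma's adjusted p = 0.000319. That call was lost with sex as a covariate (0.119), without the trend (0.140) and with no filter (0.444). Xbp1, the factor that drives secretion in plasma cells and is abundant in hepatocytes, was at 25.2, 28.7 and 24.1 FPKM in laboratory livers and at 43.0, 59.3 and 72.3 in wild ones, without overlap. Its difference was -0.14 in zFPKM, with limma's adjusted p = 0.589, and -1.13 on log2(FPKM + 0.1), with limma's adjusted p = 0.00324. Tnfrsf17 (BCMA), which is closer to a defining marker, is listed at 0 in 5 mice and at 0.133 in wild mouse 3. It was chosen after its values were seen.

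The IgG heavy chain genes were not tested, since each is listed at several places in 5 of the mice and at 1 place in laboratory mouse 1. Summed over these places, the IgG heavy chains Ighg1, Ighg2b, Ighg2c and Ighg3 measured 0.000828, 0.0389 and 0.0282 FPKM in the 3 laboratory animals, compared with 0.304, 0.0877 and 1.80 in the 3 wild animals. The order of the wild mice was the same as for Jchain, with wild mouse 3 the highest and wild mouse 2 the lowest. In wild mouse 3, Ighg2c gave 0.778 FPKM of its sum on a sequence other than the chromosome, and 2.41e-15 on the chromosome. The sums may thus reflect where reads were placed as well as level, which was not tested. The IgM heavy chain gene Ighm overlapped, at 0.0355, 0.287 and 0.531 against 0.150, 0.280 and 0.958. The Ighm value of laboratory mouse 1 comes from a sequence other than the chromosome. At that place laboratory mice 2 and 3 had 0.0460 and 0.0972 FPKM. Because laboratory mouse 1 holds 1 place per gene, its Ighm and IgG values cannot be compared with the sums of the other mice.

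Cd3e, the epsilon chain of the T cell receptor complex, was at 0.0753, 0.0753 and 0.286 FPKM in the laboratory livers, against 0.594, 0.414 and 1.18 in the wild livers. Every wild mouse was above every laboratory mouse, and wild mouse 3 was the highest. On zFPKM the difference was -0.61 ± 0.429 (SE, n = 3 per group), with limma's adjusted p = 0.396. On log2(FPKM + 0.1) it was -1.76 ± 0.479, with limma's adjusted p = 0.0197, where the median of all genes was -0.47. With each mouse set to a median of 0 on that scale it was -1.02, with limma's adjusted p = 0.0654, so the call depends on the scale.

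Cd3g, the gamma chain, stood at 0.810, 0.636 and 0.565 FPKM in laboratory livers and at 0.304, 0.551 and 0.639 in wild ones, so the groups overlapped. Its zFPKM difference was 0.40, with limma's adjusted p = 0.566. Cd3d, the delta chain, was at 0.490 and 0.835 FPKM in laboratory mice 1 and 3 and is listed at 0 in laboratory mouse 2, and it was at 0.245, 0.123 and 0.592 in the wild mice. The wild values lay inside the laboratory range, and the difference of -0.16 had limma's adjusted p = 0.873. Its size depends on the floor that the value listed at 0 was set to, at -0.83 with a floor of -5 and -5.83 with a floor of -20.

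Cd8a measured 0.0973, 0.0642 and 0.0696 FPKM in the 3 laboratory animals, compared with 0.0569, 0.0594 and 0.314 in the 3 wild animals. Only wild mouse 3 stood apart. The zFPKM difference of 0.07 had limma's adjusted p = 0.948.

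The CD3 chains assemble into 1 complex, yet the measured FPKM of their genes did not keep a fixed ratio. Cd3e to Cd3g was 0.0930, 0.118 and 0.506 in the laboratory livers, against 1.95, 0.751 and 1.85 in the wild livers, without overlap. The laboratory ratios rest on few reads of Cd3e, about 1.08 and 5.25 in laboratory mice 2 and 3, and laboratory mouse 1 has no bounds. Cd3d to Cd3e was 6.50 and 2.92 in laboratory mice 1 and 3 and 0.412, 0.297 and 0.500 in the wild mice, but 0 in laboratory mouse 2, where Cd3d is listed at 0, so the groups overlapped. Cd3g to Ptprc overlapped between the groups, whereas Cd3e to Ptprc was 0.0950, 0.0705 and 0.234 in laboratory livers and 2.32, 0.432 and 0.362 in wild ones. The Cd3e gene overlaps an antisense transcript, Gm48719, and an unverified transcript on its own strand, Gm48720, so its level is less certain than that of Cd3d or Cd3g.

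The other T cell genes showed no shared direction. Of 30 listed genes 21 were tested, of which 0 rose and 1 fell in limma's test on zFPKM, with 2 at an unadjusted p under 0.05, and their median difference was 0.08. The shares of all tested genes were 7.17% higher and 7.28% lower. In FPKM, 1 of the 21 lay higher in all laboratory mice and 2 lay lower, where 12.1% of all tested genes lay higher and 43.7% lower. Zap70, the kinase that the CD3 chains recruit, was the gene that fell, at 0.539, 1.08 and 1.39 FPKM in the laboratory livers, against 5.71, 11.7 and 8.42 in the wild livers. Its zFPKM difference was -0.83 ± 0.252 (SE, n = 3 per group), with limma's adjusted p = 0.0110, and the call was lost without laboratory mouse 1 (0.0514), wild mouse 2 (0.208) or wild mouse 3 (0.138). With sex as a covariate the difference was -0.44 and did not pass (limma's adjusted p = 0.374).

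Zap70 stood at a higher FPKM than Cd3e in every mouse. Tcf7, a T cell transcription factor, was at 1.40, 1.60 and 1.65 FPKM in the laboratory livers, against 1.57, 1.83 and 1.30 in the wild livers, with limma's adjusted p = 0.679. The T cell receptor constant genes Trbc1 and Trbc2, named after their values were seen, were below the filter on low values, with at most 1.61e-07 FPKM for Trbc1 in any mouse and 0.0279 FPKM for Trbc2 in wild mouse 3.

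**Figure D4:**
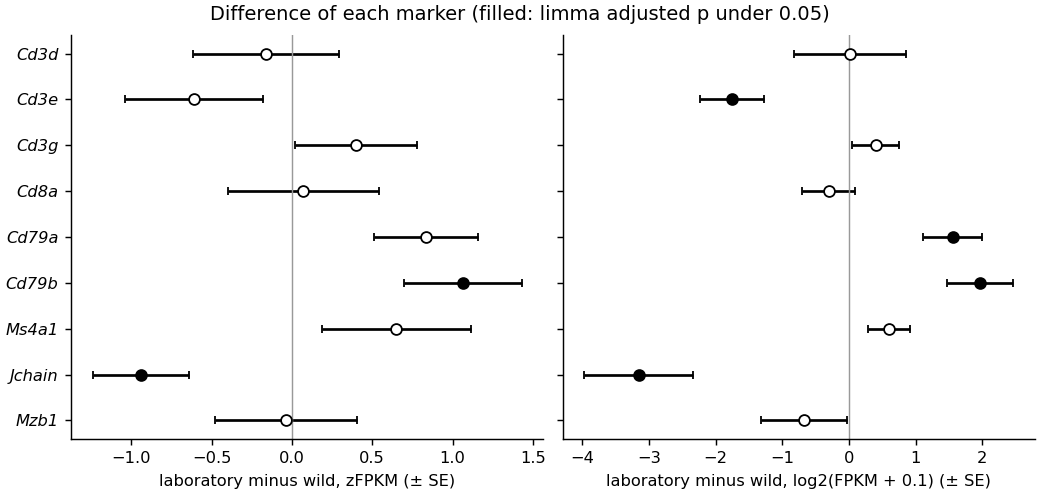
Difference of each marker between laboratory and wild mice (laboratory minus wild, point ± SE, n = 3 per group) in zFPKM on the left and log2(FPKM + 0.1) on the right, filled where limma's adjusted p was under 0.05. Cd79b and Jchain passed on both scales, and Cd79a and Cd3e passed on log2(FPKM + 0.1) alone.

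On log2(FPKM + 0.1), 4 of the 9 genes passed, Cd79a and Cd79b as higher in laboratory mice and Cd3e and Jchain as lower, where 8.19% of all tested genes were higher and 38.0% lower. Over all tested genes the split of calls moved with the scale, from 1335 higher and 1357 lower on zFPKM to 1525 higher and 7073 lower on log2(FPKM + 0.1). A higher level in laboratory mice thus went against the general direction on that scale, and a lower level went with it. In a two-sided exact permutation test of 3 mice against 3, each of these 4 genes had p = 0.1, the smallest that this design allows.

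Leukocyte RNA as a whole overlapped between the groups. Ptprc was at 0.792, 1.07 and 1.22 FPKM in the laboratory livers, against 0.256, 0.959 and 3.27 in the wild livers, the lowest and the highest of the 6 both being wild. Of 7 leukocyte genes tested, 1 rose and 0 fell, where 7.17% of all tested genes rose and 7.28% fell. Their median zFPKM difference was 0.31. In FPKM, 0 of the 7 lay higher in all laboratory mice and 1 lay lower. The shares of all tested genes were 12.1% higher and 43.7% lower. The gene that rose, Cd52, a surface antigen of lymphocytes and other leukocytes, was at 29.0, 21.4 and 16.9 FPKM in laboratory livers and at 3.41, 9.38 and 29.7 in wild ones. Its groups overlapped, and it passed in 7 of 20 alternatives (limma's adjusted p = 0.00223, and 0.000755 to 0.450 over the alternatives).

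Wild mouse 3, which led in Jchain, Mzb1, Cd3e and Cd8a, thus also led in Ptprc and Cd52. It had the lowest Ms4a1 of the 6 mice. Its 10 Kupffer cell genes summed to 295 FPKM, against 36.7 to 141 in the other 5 mice. The part of leukocyte content in the values of wild mouse 3 was not tested.

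**Figure D5:**
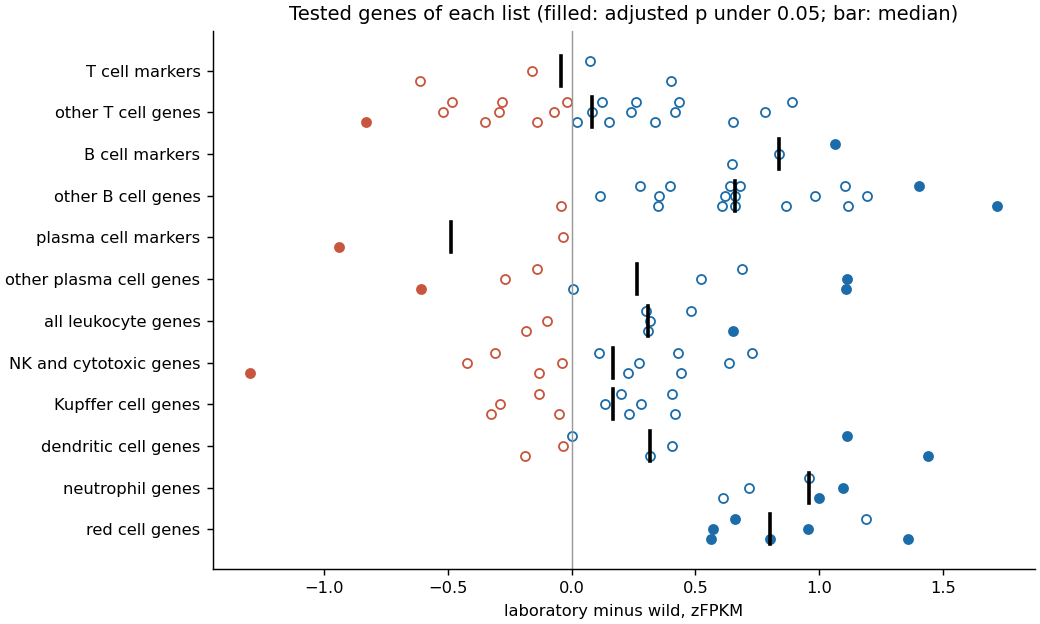
Difference in zFPKM (laboratory minus wild) of each tested gene in each list, filled where limma's adjusted p was under 0.05, with a black bar at the list's median. The B cell genes lie almost entirely to the right (median 0.66 for the other B cell genes), the T cell genes lie on both sides of 0 (median 0.08), and red cell and neutrophil genes lie to the right.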

How the data were processed

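Liver RNA-Seq of 3 laboratory and 3 wild mice was used. The authors used kalign against the masked mouse genome, then the Tuxedo pipeline, and deposited FPKM, scaled to gene length and library, together with zFPKM. The deposited zFPKM is a score, linear in log2 FPKM, whose mode and SD were fitted per mouse. The submitters' processing notes name GRCm38.p6 and Picard. Read counts were not used here, so the count test named in the study's methods was not run and absolute depth is unknown.

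Gene names listed once in all 6 mice were used, less 13 of 47256 marked as failed. Failures are not marked for laboratory mouse 1. Genes with zFPKM above -3 in at least 3 mice were tested, lower values being set to -3, with limma 3.58.1 in R 4.3.3 (lmFit, eBayes with trend) and Benjamini-Hochberg adjustment at 0.05. The fit was tested on simulated data. In the zFPKM fit, limma drew the spread between mice behind its SE and p-values almost wholly from genes of like level. A gene's own spread hardly counted. Cd3d, with SDs of 1.34 in laboratory and 0.413 in wild mice, had an SE of 0.453. Cd3e, with SDs of 0.103 and 0.344, had an SE of 0.429. On log2(FPKM + 0.1) fold changes of low genes are understated. Ratios and sums were computed in Python 3.11.15 with pandas 2.3.3.

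The markers and lists were chosen with earlier results of these data known. One called gene of the B cell list counts in its totals but is not reported here. Otherwise named are all 9 markers, called genes and the 2 most abundant genes of the T, B and plasma cell lists, the most abundant gene of each other list with any called ones where at most 3 were, and for each class the 3 genes most alike.

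Alternatives were other floors, filters, pseudocounts and scalings, no trend, sex as a covariate and each mouse left out. With sex as a covariate the difference rests on wild mouse 1, the only wild male. One mode and SD for all mice, and leaving out 2 mice together, were added after seeing the data.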

Additional observations from a re-analysis of the deposited data

How the results depend on the processing

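The 2692 genes called in limma's test became 1196 with a floor of -20, 1411 with a filter in at least 1 mouse, 23 with no filter, 795 without the trend and 1373 with sex as a covariate (1123 higher and 250 lower). They became 8598 on log2(FPKM + 0.1), 8252 on log2(FPKM + 1), 7288 after quantile normalization, 5278 with a median of 0 in each mouse, 8805 with that median on log2(FPKM + 0.1) (5335 higher and 3470 lower), 8556 with one mode and SD for all mice and 5683 without laboratory mouse 3 and wild mouse 1. Leaving out single mice gave 1421 to 2557. These scalings and sex moved the median of all genes by -0.47 to 0.27. The 2 markers called became 0 with a floor of -5, a floor of -20, a filter in at least 1 mouse, no filter or no trend, where 3, 3, 3, 1 and 4 had an unadjusted p under 0.05. They became 4 on log2(FPKM + 0.1), after quantile normalization and with one mode and SD, 5 with a median of 0 on log2(FPKM + 0.1), and 0 to 2 without single mice. The 6 other lymphocyte genes called became 12 on log2(FPKM + 0.1) and 3 to 8 without single mice.

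Cd79a, Cd79b, Ms4a1, Cd3e, Cd3g and Jchain kept their direction under all 20 alternatives, and Cd79a passed in 10, Cd79b in 11 and Jchain in 9 of them. Markers near 0 changed direction. Cd3d became 0.0174 on log2(FPKM + 0.1), 0.10 on log2(FPKM + 1), 0.76 with a median of 0 on log2(FPKM + 0.1), 0.21 with sex and ranged from -0.656 to 0.599 without single mice. Cd8a became -0.30 and -0.0786 on log2(FPKM + 0.1) and log2(FPKM + 1), -0.11 after quantile normalization, -0.15 with one mode and SD, and ranged from -0.267 to 0.397 without single mice. Mzb1 became 0.0626 with a median of 0 on log2(FPKM + 0.1), 0.81 with sex, and ranged from -0.459 to 0.325 without single mice. Tcf7 became -0.00537 on log2(FPKM + 0.1), -0.00555 on log2(FPKM + 1) and -0.00176 with one mode and SD. Iglc2 became 0.00795 after quantile normalization, 0.43 with sex, ranging from -0.286 to 0.207 without single mice, and Xbp1 0.13 with sex. The causes were not tested. No paired analysis was possible because the laboratory and wild mice are different animals, and the labels match none of them into pairs.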

Other observations

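Of 7 dendritic cell genes tested, 2 rose in the laboratory mice and 0 fell in limma's test on zFPKM, where 7.17% of all tested genes rose and 7.28% fell. Their median difference was 0.32 in zFPKM and 0.08 on log2(FPKM + 0.1). Siglech, a receptor of plasmacytoid dendritic cells, was at 0.215, 0.358 and 0.306 FPKM in the laboratory mice and was listed at 0 in wild mouse 1 and at 0.0262 and 0.0304 in the others (limma's adjusted p = 0.0200, passed in 11 of 20 alternatives). Clec9a, a receptor of cross-presenting dendritic cells, was at 0.583, 0.737 and 1.46 against 0.0451, 0.149 and 0.582 (limma's adjusted p = 0.0485, passed in 6 of 20 alternatives), with the highest wild value just below the lowest laboratory value. S100a8, which with S100a9 makes up calprotectin in neutrophils, was at 4.96, 5.74 and 2.55 against 0.687, 1.34 and 0.444 FPKM (limma's adjusted p = 0.00219). S100a9 was at 7.93, 6.25 and 3.97 against 1.20, 1.23 and 1.30 (limma's adjusted p = 0.00153).

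Natural killer and cytotoxic genes did not share a direction. Of 12 tested, 0 rose and 1 fell in limma's test on zFPKM, where 7.17% of all tested genes rose and 7.28% fell, with 1 at an unadjusted p under 0.05. The gene that fell was the chemokine Xcl1, at 0.924 FPKM in laboratory mouse 1, listed at 0 in laboratory mice 2 and 3, and at 0.270, 0.790 and 2.62 in the wild mice (limma's adjusted p = 0.0334). Its groups overlapped, and it passed in 1 of 20 alternatives (limma's adjusted p = 0.00181 to 0.807). Ccl5, the most abundant of them, overlapped, at 2.72 to 5.30 against 1.81 to 12.4 FPKM. None of 10 Kupffer cell genes and none of 8 sinusoidal endothelial genes passed limma's test on zFPKM, with 1 of each list at an unadjusted p under 0.05. C1qa was at 18.6 to 38.3 against 11.3 to 70.1 FPKM and Clec4g at 10.9 to 18.5 against 10.6 to 34.4.

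Immature T cells were looked for through 6 thymocyte genes, of which Rag1 and Rag2 are listed at 0 in every mouse. Dntt, the terminal transferase of immature lymphocytes, named after its values were seen, was at 0.0504, 0.0504 and 0.383 FPKM in laboratory livers and at 0.0884, 3.49 and 1.97 in wild ones, so the groups overlapped (limma's adjusted p = 0.262). Cd1d1, also made by hepatocytes, fell in the laboratory mice, at 14.8, 28.3 and 49.1 against 94.5, 130 and 139 FPKM (limma's adjusted p = 0.00643). Its neighbour in sequence Cd1d2 fell alongside, at 0.817, 2.13 and 4.97 against 11.1, 17.1 and 18.1 (limma's adjusted p = 0.00740), and the counting of such near copies is uncertain. Of 8 hepatocyte genes 3 rose and 3 fell, where 7.17% of all tested genes rose and 7.28% fell. The most abundant, Apoa1, was at 15320 to 19565 FPKM against 7721 to 8583. Of 8 acinar pancreas genes 2 were tested and 0 passed, also at an unadjusted p under 0.05, and Cela1 was at 4.38 to 8.92 against 2.50 to 17.1 FPKM.

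The genes most alike to the mean zFPKM of each class over the 6 mice were listed with Pearson's r as a description. For the T cell markers they were Jag2 (0.988), Nos2 (0.984) and Cma1 (0.983), all at or below 0.136 FPKM. For the B cell markers they were Ptger1, Ttc32 and LOC108168464, with r of 0.9996, 0.9996 and 0.9995, and 1076 genes exceeded 0.95, against 38 for the T cell and 24 for the plasma cell markers, so likeness over 6 mice was common. For the plasma cell markers they were Serpinc1 (0.990), Fam71e1 (0.990) and Gm33517 (0.986), of which Serpinc1, at 720 to 1875 FPKM, is the hepatocyte gene of antithrombin.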
